A study of Mus musculus with 10 samples.

Results

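The genes described here encode proteases, most of them secreted or membrane-bound, with inhibitors of proteases and related proteins. They are the protein-coding genes whose symbols name an ADAM, ADAMTS or ADAMTS-like protein, a matrix metalloproteinase (MMP), a tissue inhibitor of metalloproteinases (TIMP), a serpin, an HTRA serine protease or a plasminogen activator, together with Reck and Cst3. Of 18464 genes in the table, 14859 are protein-coding and 72 fit this definition. By their known roles 43 were classed as proteases, 19 as inhibitors and 10 as neither. Timp1 and Plaur were not among the rows and are not analysed here.

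The libraries are polyA RNA-seq from the ventral midbrain (SNpc/VTA, the dopamine neuron region) of naive Aldh1l1-NuTRAP mice. All of these mice carry a ribosome tag directed to cells by way of the Aldh1l1 promoter, which in brain is active mainly in astrocytes. The 5 libraries of the astrocyte fraction hold RNA purified with the tag, and the 5 input libraries hold RNA of all cell types of the same region. No age or sex is named in the labels. Each fraction library shares a title number (88, 92, 976, 981 or 982) with an input library, and values per library are given in that order. Whether a number stands for 1 animal is not stated in the labels. The p-values therefore describe the spread among these libraries, which may be technical. The main fit holds the group only and does not use the shared numbers.

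Metalloproteinases of the ADAM, ADAMTS and MMP families cut cell-surface proteins and the extracellular matrix with a zinc ion held by histidines in the active site. TIMPs block that site in a tight complex, whereas serpins trap serine proteases such as the plasminogen activators in a covalent one. In brain these enzymes trim the proteoglycan nets around neurons and release growth factors and receptors from membranes. Enzymes and inhibitors together set how much plasmin is formed.

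Short sequences show the zinc-binding site of several members. The stretches below are the coding bases of the zinc-binding site, with the 3 histidine codons and the catalytic glutamate codon in capitals, read from GENCODE M21 transcripts (GRCm38) for 3 pairs of relatives that lay on opposite sides of the comparison or differed in size of change.
Adam10: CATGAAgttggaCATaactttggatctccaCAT
Adam17: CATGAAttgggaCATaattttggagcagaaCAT
Mmp14: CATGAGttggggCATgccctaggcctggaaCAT
Mmp24: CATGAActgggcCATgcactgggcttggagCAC
Adamts9: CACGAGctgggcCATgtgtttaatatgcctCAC
Adamts4: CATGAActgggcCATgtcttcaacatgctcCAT
The site lies at chr9:70754296-70761585 (+ strand, across an exon junction) for Adam10, chr12:21336732-21336764 (−) for Adam17, chr14:54437627-54437659 (+) for Mmp14 and chr2:155807427-155807459 (+) for Mmp24. For the ADAMTS pair, where it also crosses an exon junction, it lies at chr6:92905285-92908493 (−) for Adamts9 and chr1:171253210-171253915 (+) for Adamts4. In Adamts9 and Adamts4 the codon at position 8 of the 11 is asparagine, where the other 4 have glycine. A search for such a site in frame, with glycine or asparagine at that codon, found it in 11 of 11 ADAM proteases, 11 of 11 MMPs and 15 of 16 ADAMTS proteases. Adamts8 had no match of these letters, and a miss describes the letters searched only. The site was found in 0 of 3 of Adam11, Adam22 and Adam23 and in 0 of 5 ADAMTS-like genes. Among all 21901 coding genes 74 held it, or 0.338%.

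Sequencing was deep in 9 of the 10 libraries. The fraction library of number 92 held 3845554 counts, the other 4 fraction libraries 24479136 to 26924406 and the input libraries 21812193 to 30878894, so 3 counts correspond to 0.880 CPM (counts scaled to library depth) in the shallow library. The fraction matched its label. All 10 astrocyte markers were higher in the fraction with a median log2 fold change of 3.05, while all 10 neuron, 10 mature oligodendrocyte, 8 oligodendrocyte precursor and 10 microglia markers were lower, with medians of −2.33, −3.72, −3.19 and −4.13. Of 10 endothelial markers 4 were lower, and of 10 mural markers 2 were higher and 8 lower. No marker was at 0 in all 5 fraction libraries, and Opalin, C1qc, Tyrobp, Aif1, Abcc9 (mural) and Lum (fibroblast) were at 0 in at least 1 of them. In the bulk input libraries the number of cells of a type and the RNA per cell cannot be told apart. The fraction is RNA purified with the tag, and which cells its transcripts came from was not measured. Libraries of the numbers 976 and 982 stood apart by choroid plexus and ependyma markers. Summed over 8 such genes, the level was 233, 166, 19538, 213 and 4110 CPM in the fraction and 305, 269, 4964, 280 and 1203 CPM in input.

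The members split in both directions between the astrocyte fraction and input. Of 71 tested (edgeR's quasi-likelihood test, Benjamini-Hochberg adjusted p under 0.05, as for every adjusted p here), 21 were higher in the fraction, 37 were lower and 13 were not called, beside 33.1% of all 17672 tested genes called higher and 37.5% called lower. The median log2 fold change of the members was −1.07, against −0.06 over all tested genes. In 18 members all 5 fraction libraries lay above all 5 input libraries and in 33 they lay below, where the same held for 27.2% and 31.1% of all tested genes. Without the numbers 976 and 982, 20 members were higher and 35 lower, beside 32.9% and 32.8% of all genes tested in that fit. With total-count scaling in place of TMM, 17 members were higher and 40 lower, beside 24.3% and 47.1% of all tested genes.

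The count of lower members is to be read beside a filter on low values. The authors' table lists only genes that reach 5 counts in each library of 1 or both groups. By this measure 44 members passed in both groups (20 higher, 17 lower, 7 not called) and 28 passed only through input (1 higher, 20 lower, 6 not called and Adam21 too low to test). None passed only through the fraction. The matching shares over all genes of the table were not counted, so whether these counts are particular to the members is not known. Among the 40 members with a mean of at least 5 CPM, 17 were higher and 17 were lower, beside 37.2% and 40.8% of all genes at that level.

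Among 42 proteases tested, 12 (28.6%) were higher in the fraction and 24 (57.1%) lower, beside 33.1% and 37.5% of all tested genes. The other 6 had no call, and the class median was −1.43 on the log2 scale. Among 19 inhibitors, 7 (36.8%) were higher in the fraction and 5 (26.3%) lower, beside the same shares of all tested genes. The other 7 had no call, and the class median was −0.51. With the title number as a block, 8 inhibitors were lower, where 38.7% of all tested genes were lower. At a mean of at least 5 CPM the medians turned positive, to 0.16 over 21 proteases (8 higher, 8 lower) and 1.38 over 11 inhibitors (7 higher, 3 lower). Of all genes at that level 37.2% were higher and 40.8% lower. No test compared the classes with each other.

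**Figure D1:**
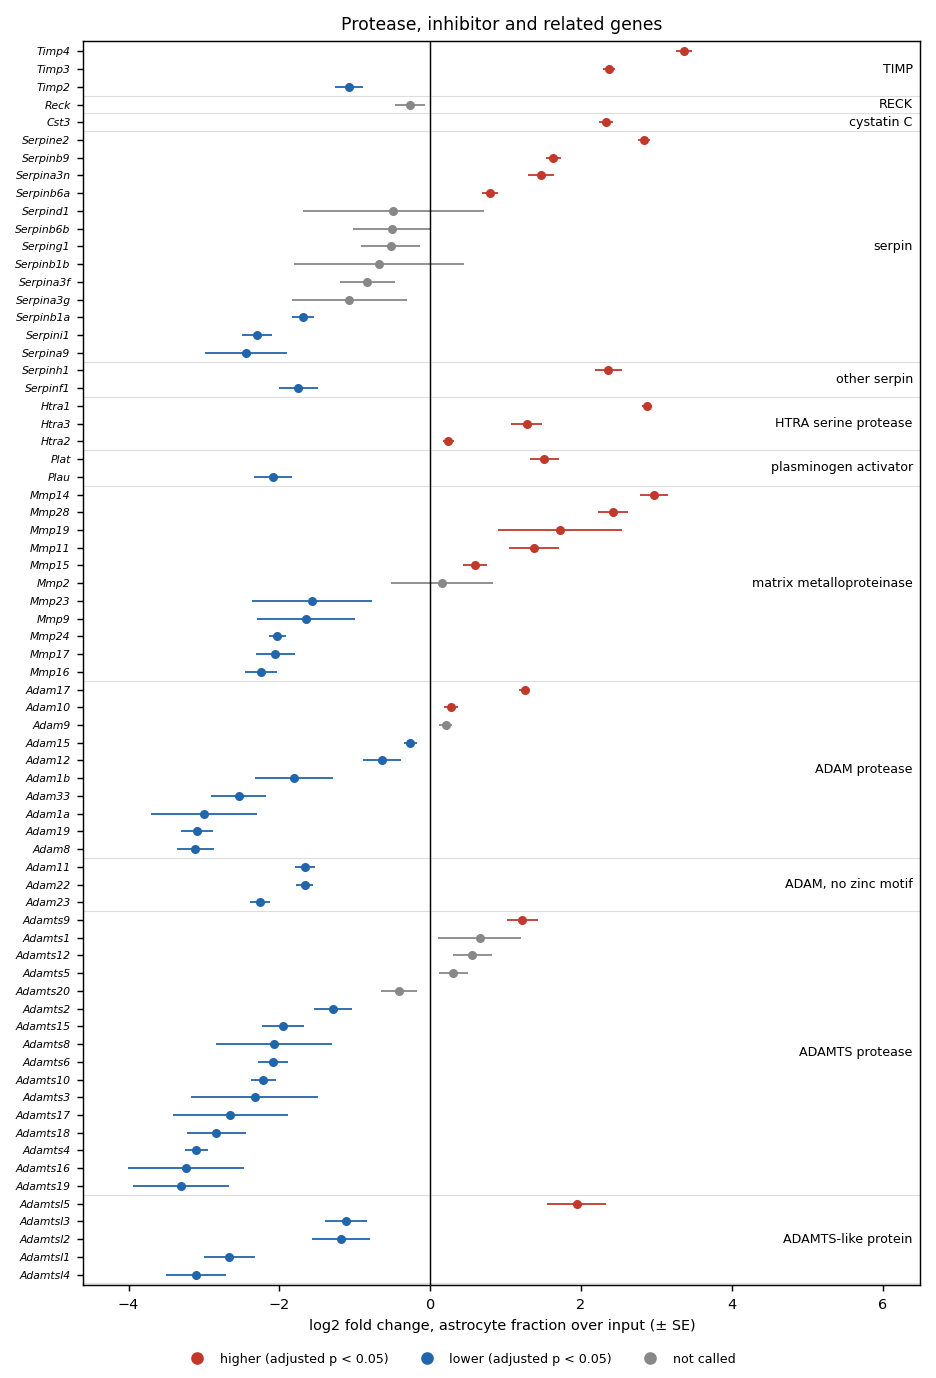
Log2 fold change, astrocyte fraction over input (x axis), of tested members, in rows grouped by class; bars are ± SE from the log2 CPM of 5 libraries per group, red marks genes called higher, blue lower and grey not called. All 3 HTRA genes lie to the right of 0 (Htra2 at −0.04 with total-count scaling), and all 3 ADAMs without the zinc motif and 11 of 16 ADAMTS proteases were called on the left. Of all tested genes 33.1% were called higher and 37.5% lower.

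Among the TIMPs, Timp4 and Timp3 were higher in the astrocyte fraction and Timp2 was lower. Timp4, at chr6:115241892-115252205, is the family member with the most restricted tissue range and is found in brain and heart. It measured 544, 480, 392.2, 565 and 467 CPM in the fraction, against 51.4, 46.9, 47.8, 48.4 and 42.4 CPM in input. The lowest fraction library was several times above the highest input library. The log2 fold change was 3.37 (standard error, SE, 0.10, adjusted p = 6.49e-11), a 10.3-fold difference and the largest of the 71 members tested.

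Timp3, at chr10:86300372-86349506, binds to the extracellular matrix and inhibits ADAM17 and several ADAMTS enzymes besides MMPs. Its levels were 864, 1016, 813, 886 and 841 CPM in the fraction and 154, 196, 169, 168 and 169 CPM in input. All fraction libraries were above all input libraries, by 2.37 on the log2 scale (SE 0.08, adjusted p = 1.48e-10). The gene lies within Syn3 on the opposite strand, and 21.3% of its exon bases overlap exons of that gene; for Timp4 and Syn2 the share is 1.53%. Exons of Adam15, Adam19, Adamts8, Adamts9, Mmp19, Mmp24 and Mmp28 likewise overlap genes on the opposite strand, over 10.1% to 28.3% of their bases. The strand setting of the counting is not stated, so reads of such partners cannot be told apart.

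Timp2 inhibits MMPs and also, bound to Mmp14, helps to activate pro-Mmp2. It measured 197, 250, 382, 215 and 219 CPM in the fraction, against 570, 539, 466, 619 and 472 CPM in input. The groups did not overlap, and the fraction library of number 976 was closest to input. The log2 fold change was −1.08 (SE 0.19, adjusted p = 9.26e-05), and −1.28 without the numbers 976 and 982 (adjusted p = 6.09e-06). Scaled to length and depth (TPM), the order of the 3 TIMPs changed between the groups. In the fraction Timp3 averaged 355 ± 29.9, Timp4 272 ± 36.5 and Timp2 212 ± 63.5 TPM (SD, n = 5), and in input Timp2 averaged 515 ± 63.3, Timp3 79.1 ± 7.90 and Timp4 30.2 ± 2.34 TPM (SD, n = 5).

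The promoter windows of the 3 TIMPs are shown because these relatives moved in different directions. Each covers 250 bases before to 50 after the annotated start (RefSeq, GRCm38.p6), given on the gene's strand, at chr6:115252156-115252455 (−) for Timp4, chr10:86300162-86300461 (+) for Timp3 and chr11:118355362-118355661 (−) for Timp2. Capitals mark matches to the letters searched on both strands.
Timp4: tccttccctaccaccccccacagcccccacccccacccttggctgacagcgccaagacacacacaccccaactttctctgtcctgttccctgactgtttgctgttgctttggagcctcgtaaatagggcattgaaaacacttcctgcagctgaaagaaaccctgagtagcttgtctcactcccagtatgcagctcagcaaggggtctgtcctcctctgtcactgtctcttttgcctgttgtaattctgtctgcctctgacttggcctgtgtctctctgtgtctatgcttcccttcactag
Timp3: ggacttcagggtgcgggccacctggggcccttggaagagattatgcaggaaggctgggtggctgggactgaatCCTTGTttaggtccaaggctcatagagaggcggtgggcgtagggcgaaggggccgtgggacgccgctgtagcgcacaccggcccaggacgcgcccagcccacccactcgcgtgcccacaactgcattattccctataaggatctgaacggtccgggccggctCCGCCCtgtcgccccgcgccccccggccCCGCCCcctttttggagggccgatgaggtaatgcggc
Timp2: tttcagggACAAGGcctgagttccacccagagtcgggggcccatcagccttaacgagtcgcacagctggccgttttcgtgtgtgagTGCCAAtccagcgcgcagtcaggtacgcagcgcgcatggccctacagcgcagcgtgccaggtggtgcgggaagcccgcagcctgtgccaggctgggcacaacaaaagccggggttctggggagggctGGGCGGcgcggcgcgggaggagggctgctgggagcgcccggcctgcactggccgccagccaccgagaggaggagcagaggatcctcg
The TATA box was searched as TATAAA, the GC box as GGGCGG, the half-site of NFI factors as TTGGCA, the AP-1 site as TGANTCA and the SOX-type site as ACAANG. Timp3 had 2 GC boxes and 1 SOX-type match, Timp2 had 1 GC box, 1 NFI half-site and 1 SOX-type match, and Timp4 had no match in this window. Across the table of promoters 35.7% of 32851 windows hold a GC box, 14.1% the NFI letters, 41.2% the SOX-type letters, 13.6% the TATA box and 7.81% the AP-1 letters. Among members with a window, a GC box was found in 78.9% of 19 windows of genes called higher and in 54.5% of 22 windows of genes called lower. The Mmp14 window held 2 GC boxes. These matches describe letters only.

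Cystatin C and Reck are inhibitors of other kinds. Cst3, which blocks cysteine cathepsins, lies at chr2:148871722-148875692. It had 3650, 4036, 3017, 3455 and 3195 CPM in the fraction, against 767, 596, 709, 682 and 695 CPM in input. Every fraction library was above every input library (log2 fold change 2.33, SE 0.09, adjusted p = 4.68e-10). Per length it was the most abundant member in both groups, at 8966 ± 977 TPM in the fraction and 2048 ± 183 TPM in input (SD, n = 5). Its share of the summed TPM of all 72 members was 68.9% in the fraction and 50.9% in input. Reck, a membrane-anchored inhibitor of MMPs, averaged 7.97 ± 2.06 CPM in the fraction and 9.81 ± 1.63 CPM in input (SD, n = 5). The groups overlapped and the difference of −0.27 (SE 0.20) was not called (adjusted p = 0.199). It was called lower with total-count scaling (−0.54, adjusted p = 0.0185), under which 47.1% of all tested genes were called lower and their median was −0.34 in place of −0.06.

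**Figure D2:**
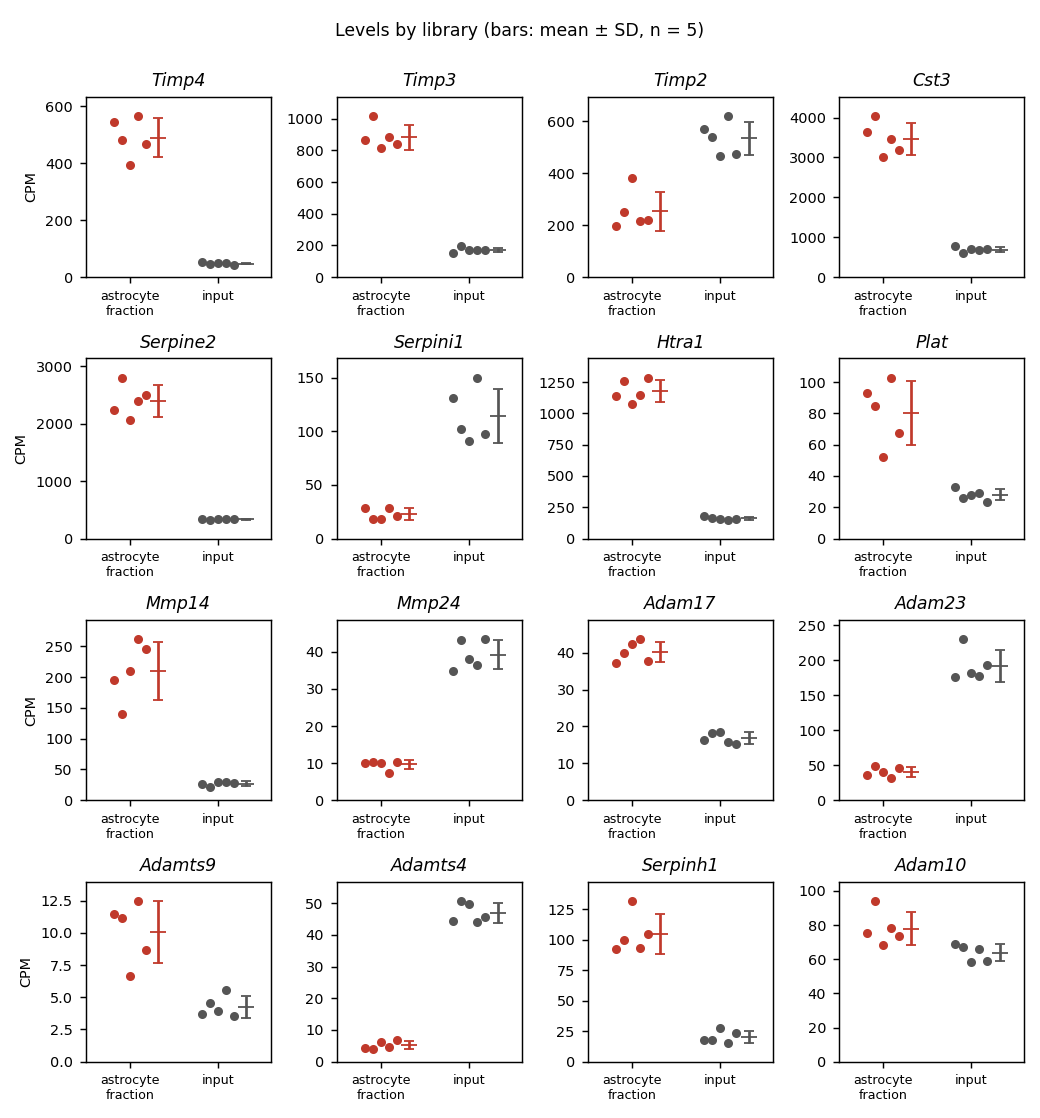
CPM (y axis, from 0) of 16 members in the 5 astrocyte fraction libraries (left, red) and the 5 input libraries (right, grey), each point a library in the order 88, 92, 976, 981, 982, with mean ± SD beside them. The groups are apart in 15 panels; in the Adam10 panel the lowest fraction library, at 68.5 CPM, lies below the highest input library, at 69.1 CPM.

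Serpins moved in both directions. Of 14 serpins with an inhibitor role 4 were higher in the fraction and 4 lower, beside 33.1% and 37.5% of all tested genes. The other 6 were not called. Of the 4 lower serpins, 2 passed the filter of the table only through input. At a mean of at least 5 CPM 4 of 6 were higher and 2 lower, beside 37.2% and 40.8% of all genes at that level. Serpine2, or protease nexin-1, inhibits thrombin and the plasminogen activators and is known as a glial product. At chr1:79794197-79861180, it measured 2234, 2803, 2071, 2401 and 2509 CPM in the fraction, against 350, 328, 336, 332 and 339 CPM in input. The input libraries lay within a narrow range far below the fraction. The log2 fold change was 2.83 (SE 0.08, adjusted p = 6.49e-11), or 7.13-fold.

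The other serpins that were higher act mainly on proteases of immune cells. Serpina3n, an acute-phase serpin known as a marker of reactive astrocytes, measured 57.4, 37.3, 46.1, 53.3 and 54.4 CPM in the fraction, against 21.3, 12.4, 19.8, 18.5 and 18.4 CPM in input. The groups did not overlap (log2 fold change 1.47, SE 0.18, adjusted p = 1.75e-06). Serpinb9, an intracellular inhibitor of granzyme B, averaged 23.1 ± 3.21 CPM in the fraction and 7.45 ± 0.574 CPM in input (log2 fold change 1.63, SE 0.10, adjusted p = 4.64e-08). Serpinb6a, an intracellular inhibitor of cathepsin G in human cells, differed by 0.79 (SE 0.11, adjusted p = 1.71e-05), and 29.3% of its exon bases overlap genes on the opposite strand. Serpina3n, Serpina3f and Serpina3g are close relatives, as are Serpinb6a and Serpinb6b, and Serpinb1a and Serpinb1b. Their sequences were not compared here, so how the counting split reads among them is uncertain.

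Serpini1, or neuroserpin, an inhibitor of tissue plasminogen activator that neurons secrete, was lower in the astrocyte fraction. It had 28.9, 18.5, 18.5, 28.4 and 20.6 CPM in the fraction and 131, 102, 91.1, 150 and 97.5 CPM in input. All fraction libraries were far below the lowest input library. Its log2 fold change was −2.29 (SE 0.20, adjusted p = 1.71e-07). Serpinb1a, an inhibitor of neutrophil elastase, averaged 5.32 ± 0.690 CPM in the fraction and 17.5 ± 3.24 CPM in input (log2 fold change −1.69, SE 0.15, adjusted p = 5.43e-07). Serpina9, known from germinal-centre B cells in human, was at 0 to 0.362 CPM in the fraction and 0.707 to 2.49 CPM in input (−2.44, SE 0.55, adjusted p = 0.000449). It passed the filter of the table only through input.

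The serpins without a call were low and varied between libraries. Serping1, the C1 inhibitor of complement, measured 4.77, 3.52, 3.15, 1.28 and 1.31 CPM in the fraction, against 5.47, 3.28, 3.91, 3.58 and 3.75 CPM in input (log2 fold change −0.53, SE 0.39, adjusted p = 0.191). The groups overlapped, and without fraction library 88 it was called lower (−0.85, adjusted p = 0.0388). It had no call at −0.32 without fraction library 981 (adjusted p = 0.394) or 982 (adjusted p = 0.40), nor at −0.27 without the numbers 976 and 982 (adjusted p = 0.617). Serpind1, or heparin cofactor II, had 10.7, 0, 0.160, 0.342 and 0.452 CPM in the fraction and 6.84, 2.83, 3.24, 2.20 and 2.80 CPM in input. Number 88 was the highest library in both groups, and the log2 fold change was −0.49 (adjusted p = 0.691), −3.30 without fraction library 88 (adjusted p = 5.44e-05) and −1.91 with the block (adjusted p = 0.0428). A sum of 10 fibroblast and meninges markers was also highest for number 88, at 2606, 128, 433, 105 and 166 CPM in the fraction and 853, 350, 573, 380 and 449 CPM in input. Of these markers 1 was called higher and 4 lower, Lum was at 0 in some fraction libraries, and their part in the Serpind1 and Serping1 values was not tested. Serpinb1b had 0.694, 0, 7.58, 0.214 and 1.58 CPM in the fraction and 3.98, 2.95, 5.38, 2.20 and 3.40 CPM in input, with the highest library of each group in number 976. It differed by −0.68 (adjusted p = 0.458), by −1.48 with the block (adjusted p = 0.0395) and by −2.59 without the numbers 976 and 982 (adjusted p = 0.00203). Serpina3f, Serpina3g and Serpinb6b had at most 2.40 CPM in any library; Serpina3f was called lower with the block (−0.86, adjusted p = 0.0456) and Serpina3g without number 92 (−1.86, adjusted p = 0.00111).

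Both serpins classed without a protease target changed. Serpinh1, or HSP47, the collagen chaperone of the endoplasmic reticulum, lies at chr7:99345376-99353239 and measured 92.5, 100.1, 132, 93.5 and 105 CPM in the fraction, against 18.2, 17.4, 27.8, 15 and 23.1 CPM in input. The fraction was higher in all 5 libraries (log2 fold change 2.36, SE 0.18, adjusted p = 5.41e-08). Serpinf1, or PEDF, a secreted neurotrophic and antiangiogenic factor, averaged 4.06 ± 1.64 CPM in the fraction and 14 ± 1.41 CPM in input and was lower (−1.75, SE 0.26, adjusted p = 2.20e-05).

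All 3 HTRA serine proteases were higher in the fraction, although Htra2 turned to −0.04 with total-count scaling (adjusted p = 0.678). Htra1, a secreted protease that degrades matrix proteins, lies at chr7:130936111-130985660. It measured 1141, 1257, 1077, 1146 and 1284 CPM in the fraction, against 176, 164, 160, 148 and 156 CPM in input. Fraction libraries were far above input in all cases. The log2 fold change was 2.87 (SE 0.06, adjusted p = 5.08e-11), or 7.34-fold. Per length it was the most abundant protease of the set in both groups, at 1343 ± 103 TPM in the fraction and 210 ± 17.8 TPM in input (SD, n = 5). Htra3, its secreted relative, averaged 14.9 ± 3.64 CPM in the fraction and 6.09 ± 1.37 CPM in input (1.28, SE 0.20, adjusted p = 6.35e-05). Htra2, a mitochondrial protease, differed little at 28.2 ± 2.90 CPM in the fraction and 23.7 ± 0.889 CPM in input (0.24, SE 0.07, adjusted p = 0.0259). Besides total-count scaling, the call was lost among genes with a mean of at least 5 CPM (adjusted p = 0.131), without input library 88 (adjusted p = 0.0568) or 981 (adjusted p = 0.0514) and without number 92 (adjusted p = 0.0549). Of its exon bases 43.7% overlap Aup1 and Loxl3 on the opposite strand.

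Of the plasminogen activators, Plat was called higher and Plau lower, but Plau passed the filter of the table only through input. Plat, tissue plasminogen activator, at chr8:22757727-22782844, had 93.1, 84.8, 51.8, 103 and 67.5 CPM in the fraction and 33.1, 26.2, 27.7, 29.0 and 23.6 CPM in input. All fraction libraries exceeded all input libraries (log2 fold change 1.51, SE 0.19, adjusted p = 4.45e-06). Plau, urokinase, stayed at 0.171 to 0.408 CPM in the fraction, against 0.932 to 2.03 CPM in input (−2.08, SE 0.25, adjusted p = 3.72e-05). Plat and its inhibitor Serpine2 were higher in the fraction, while its inhibitor Serpini1 was lower.

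Of 11 MMPs tested 5 were higher in the fraction and 5 lower, beside 33.1% and 37.5% of all tested genes. The remaining 1 was not called. Of the 5 lower MMPs, 3 (Mmp9, Mmp16 and Mmp23) passed the filter of the table only through input, as did the higher Mmp19. At a mean of at least 5 CPM 3 of 5 MMPs were higher and 2 lower, beside 37.2% and 40.8% of all genes at that level. The membrane-type MMPs, which stay on the cell surface, were all called. Mmp14, or MT1-MMP, which cleaves collagens and activates pro-Mmp2, lies at chr14:54431612-54445364. It measured 196, 140, 209, 262 and 246 CPM in the fraction, against 26.0, 20.7, 30.1, 29.4 and 28.5 CPM in input. The groups were far apart. The log2 fold change was 2.97 (SE 0.19, adjusted p = 6.15e-09), or 7.82-fold. Mmp15, or MT2-MMP, had 93.9, 102, 148, 92.9 and 148 CPM in the fraction and 75.5, 87.4, 74.9, 69.7 and 81.6 CPM in input. It was higher in all 5 fraction libraries by a smaller amount (0.59, SE 0.16, adjusted p = 0.00256), and was not called with total-count scaling (0.31, adjusted p = 0.0805).

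The remaining 3 membrane-type MMPs were lower. Mmp24, or MT5-MMP, known from neurons, had 9.995, 10.3, 10.05, 7.44 and 10.4 CPM in the fraction and 35.0, 43.3, 38.1, 36.6 and 43.4 CPM in input. No library of the fraction came near input (log2 fold change −2.03, SE 0.11, adjusted p = 6.34e-09). Mmp17, the lipid-anchored MT4-MMP, averaged 14.2 ± 4.10 CPM in the fraction and 61.0 ± 11.9 CPM in input (−2.05, SE 0.25, adjusted p = 9.83e-07). Mmp16, or MT3-MMP, averaged 1.38 ± 0.314 CPM in the fraction and 7.09 ± 1.59 CPM in input (−2.24, SE 0.21, adjusted p = 9.74e-07).

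The other MMPs, most of them secreted, were low. Mmp28, or epilysin, averaged 17.1 ± 4.10 CPM in the fraction and 3.11 ± 0.650 CPM in input (log2 fold change 2.42, SE 0.20, adjusted p = 1.86e-07). Mmp11, or stromelysin-3, which furin activates inside the cell, averaged 5.41 ± 1.96 CPM in the fraction and 2.09 ± 0.312 CPM in input (1.38, SE 0.33, adjusted p = 0.000364). The groups overlapped, with fraction library 92 at 2.05 CPM and the input libraries at 1.70 to 2.41 CPM. Mmp9, a gelatinase, had 0.816, 0, 0.239, 0.727 and 0.633 CPM in the fraction and 1.71, 2.16, 2.06, 2.12 and 1.52 CPM in input. It was low throughout and called lower (−1.65, SE 0.65, adjusted p = 0.000999). Mmp23 was lower as well (−1.57, adjusted p = 0.0232), a call that was lost without fraction library 976 (adjusted p = 0.0590), without number 92 (adjusted p = 0.0636) and without the numbers 976 and 982 (adjusted p = 0.0759).

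Mmp2, the other gelatinase, and Mmp19 had their highest fraction values in the libraries with choroid plexus markers. Mmp2 measured 0.571, 2.05, 9.09, 1.03 and 2.98 CPM in the fraction, against 2.33, 2.10, 4.31, 2.91 and 2.87 CPM in input. The groups overlapped and the gene was not called (log2 fold change 0.15, SE 0.67, adjusted p = 0.830), but without the numbers 976 and 982 it was called lower (−1.12, adjusted p = 0.0434). Mmp19 had 2.20, 0.587, 6.38, 0.599 and 4.75 CPM in the fraction and 0.777, 0.213, 1.14, 0.499 and 1.77 CPM in input. Each fraction library was above the input library of the same number, with a log2 fold change of 1.72 (adjusted p = 0.0321). Without the numbers 976 and 982 the call was lost (1.31, adjusted p = 0.0737). It was also lost with total-count scaling (1.46, adjusted p = 0.0660), with limma on the authors' deposited log2 values (1.41, adjusted p = 0.139) and when any of 5 single libraries was left out (input 88, 92 or 981, fraction 976 or 982).

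**Figure D3:**
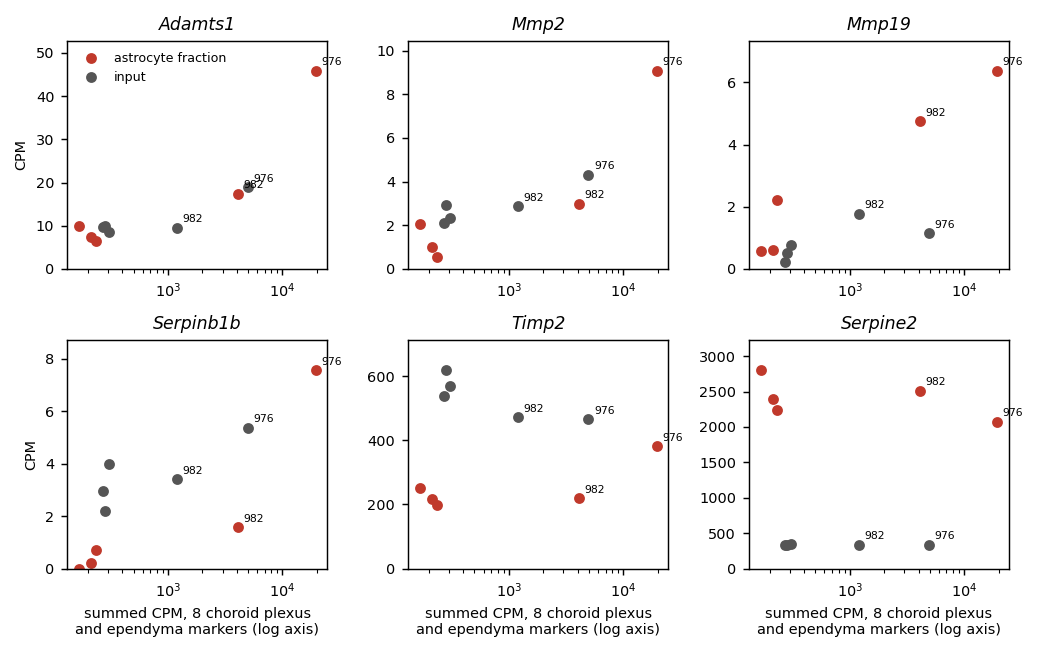
CPM of 6 members (y axes, from 0) against the summed CPM of 8 choroid plexus and ependyma markers (x axes, log scale), astrocyte fraction in red and input in grey, with the numbers 976 and 982 labelled. Adamts1, Mmp2, Mmp19 and Serpinb1b were highest in fraction library 976, where the marker sum was 19538 CPM; Serpine2 was not.

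Of 10 ADAM proteases tested, Adam17 and Adam10 were higher (Adam10 at −0.01 with total-count scaling), 7 were lower and Adam9 was not called. That is 20% higher and 70% lower, beside 33.1% and 37.5% of all tested genes, with a class median of −1.23 on the log2 scale. Of the 7 lower, Adam1a, Adam1b, Adam8 and Adam33 passed the filter of the table only through input. At a mean of at least 5 CPM 1 of 5 was higher and 2 were lower, beside 37.2% and 40.8% of all genes at that level, and the class median was 0.11. Adam17, or TACE, releases tumour necrosis factor, its receptors and ligands of the EGF receptor from membranes. At chr12:21323509-21373632, it measured 37.2, 39.9, 42.4, 43.6 and 37.8 CPM in the fraction, against 16.4, 18.3, 18.5, 15.8 and 15.1 CPM in input. All fraction libraries were at least 2-fold above input of the same number (log2 fold change 1.25, SE 0.07, adjusted p = 6.68e-08). Adam10, the sheddase of Notch and of the amyloid precursor protein, had 75.1, 94.2, 68.5, 78.3 and 73.4 CPM in the fraction and 69.1, 67.4, 58.2, 65.9 and 58.8 CPM in input. The groups overlapped slightly. Its log2 difference was 0.28 (SE 0.09, adjusted p = 0.0151), −0.01 with total-count scaling (adjusted p = 0.925) and 0.19 among genes with a mean of at least 5 CPM (adjusted p = 0.0843).

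Adam9, a sheddase with overlapping targets, differed by 0.20 (SE 0.09, adjusted p = 0.0581) and was called higher with the block (0.21, adjusted p = 0.0338), while with total-count scaling it stood at −0.08 (adjusted p = 0.424). Adam15 averaged 94.5 ± 10.2 CPM in the fraction and 114 ± 7.71 CPM in input (−0.26, SE 0.08, adjusted p = 0.0133). The groups overlapped. The Adam15 call was lost without fraction library 976 (−0.15, adjusted p = 0.177), without the numbers 976 and 982 (−0.15, adjusted p = 0.234) and without number 92 (−0.20, adjusted p = 0.0527). Adam12 was near the threshold (−0.64, adjusted p = 0.0449) and lost its call with the block (−0.68, adjusted p = 0.0512), without the numbers 976 and 982 (−0.26, adjusted p = 0.487) and without any of the 5 input libraries or fraction library 976, 981 or 982.

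Adam19 and Adam8 had the most negative log2 fold changes among the ADAM proteases, but Adam8 was close to 0 counts in the fraction. Adam19, a sheddase of neuregulin, had 2.24, 1.47, 2.07, 2.86 and 3.16 CPM in the fraction and 20.0, 25.1, 17.5, 26.0 and 19.9 CPM in input (log2 fold change −3.09, SE 0.22, adjusted p = 9.17e-09). The groups did not come close. Adam8, best known from leukocytes, was at 0.0798 to 0.293 CPM in the fraction and 1.31 to 1.62 CPM in input (−3.12, SE 0.24, adjusted p = 2.53e-07). Its fraction libraries held 2, 1, 2, 2 and 2 counts, so the size of its change is uncertain. Adam1a, known from sperm, fell by 2.999 on the log2 scale (adjusted p = 2.01e-06), but 63.7% of its exon bases overlap genes on the same strand, and its zinc site is identical in letters to that of Adam1b. Adam33 and Adam1b were lower too, at means of 0.110 and 0.295 CPM in the fraction and 1.16 and 1.41 CPM in input, and Adam21 was too low to test.

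Adam11, Adam22 and Adam23, which lack the zinc site and serve as receptors for LGI proteins at synapses and axons, were all lower. Adam22 had 57.3, 70.1, 50.3, 62.2 and 57.6 CPM in the fraction and 185, 222, 164, 195 and 174 CPM in input. Fraction levels stayed far below input in all 5 libraries (log2 fold change −1.67, SE 0.11, adjusted p = 1.31e-08). Adam23 averaged 40.5 ± 6.86 CPM in the fraction and 191 ± 22.4 CPM in input (−2.25, SE 0.13, adjusted p = 3.58e-09). Adam11 averaged 58.6 ± 8.64 CPM in the fraction and 185 ± 26.6 CPM in input (−1.66, SE 0.13, adjusted p = 6.82e-08). Their ligands split. Lgi4 was higher in the fraction at 382 ± 71.6 CPM, against 47.9 ± 5.56 CPM in input (2.99, adjusted p = 7.46e-10), and Lgi1 was higher at 216 ± 13 CPM in the fraction and 86.0 ± 6.65 CPM in input (1.33, adjusted p = 4.01e-09). Lgi2 and Lgi3 were lower, by −2.35 and −2.46.

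Of 16 ADAMTS proteases 1 was higher in the fraction and 11 were lower, beside 33.1% and 37.5% of all tested genes. The other 4 were not called, and the class median was −2.08 on the log2 scale. Of the 11 lower, 7 (Adamts3, Adamts6, Adamts8, Adamts16, Adamts17, Adamts18 and Adamts19) passed the filter of the table only through input. At a mean of at least 5 CPM 1 of 7 was higher and 4 were lower, with a median of −1.38. Of all genes at that level 37.2% were higher and 40.8% lower. Adamts9, a proteoglycan-cleaving member at chr6:92772699-92943492, had 11.5, 11.2, 6.62, 12.5 and 8.68 CPM in the fraction and 3.67, 4.59, 3.91, 5.57 and 3.58 CPM in input. The lowest fraction library was just above the highest input library (1.22, SE 0.20, adjusted p = 0.000123). Adamts4, an aggrecanase that also cleaves brevican and versican, had 4.45, 4.11, 6.30, 4.58 and 6.87 CPM in the fraction and 44.4, 50.7, 49.6, 43.9 and 45.7 CPM in input. It was lower in every fraction library by a wide margin (−3.10, SE 0.15, adjusted p = 9.33e-10). Its relative Adamts5 measured 2.61, 4.40, 3.07, 2.52 and 3.62 CPM in the fraction, against 2.24, 2.19, 3.43, 2.62 and 2.23 CPM in input. The groups overlapped (0.31, SE 0.19, adjusted p = 0.232).

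Adamts1, an aggrecanase, was highest where choroid plexus markers were highest. It had 6.57, 9.98, 45.9, 7.44 and 17.4 CPM in the fraction and 8.54, 9.61, 18.9, 9.85 and 9.52 CPM in input. The difference was 0.66 (SE 0.55, adjusted p = 0.296) with all libraries and −0.16 without the numbers 976 and 982 (adjusted p = 0.510). Of the 8 choroid plexus and ependyma markers the main fit called 2 higher and 0 lower, and the block fit 5 higher and 1 lower. Dropping the libraries numbered 976 and 982 left 5 of these markers called above input and 2 called below it. The part of these markers in the values of Adamts1, Mmp2, Mmp19, Serpinb1b and Timp2 was not tested. Among the other lower members, Adamts10 averaged 3.16 ± 0.667 CPM in the fraction and 14.8 ± 1.92 CPM in input (−2.21, adjusted p = 1.24e-07), and Adamts6 1.30 ± 0.242 CPM in the fraction and 5.82 ± 1.51 CPM in input (−2.08, adjusted p = 3.92e-06). The procollagen-trimming Adamts2 and Adamts3 were lower by −1.29 and −2.33. Adamts8, Adamts15, Adamts16, Adamts17, Adamts18 and Adamts19 were lower by −1.96 to −3.30, at fraction means between 0.0742 and 5.999 CPM. Adamts12 was not called (0.56, adjusted p = 0.0931), but was called higher with limma on the authors' deposited log2 values (0.74, adjusted p = 0.0303) and without fraction library 976 (0.73, adjusted p = 0.0468). Adamts20 was not called (−0.42, adjusted p = 0.0942), but was called lower with total-count scaling (−0.70, adjusted p = 0.00782) and without fraction library 92 (−0.53, adjusted p = 0.0257).

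The 5 ADAMTS-like proteins, matrix glycoproteins without the protease domain, gave 1 higher and 4 lower, beside 33.1% and 37.5% of all tested genes. Of the 4 lower, Adamtsl1, Adamtsl3 and Adamtsl4 passed the filter of the table only through input. Adamtsl5 had 13.9, 20.2, 18.6, 9.54 and 24.4 CPM in the fraction and 3.42, 3.95, 6.45, 1.91 and 6.41 CPM in input, with no overlap (log2 fold change 1.94, SE 0.40, adjusted p = 0.000230). Adamtsl4, which binds fibrillin microfibrils, had 2.90, 0.880, 4.43, 1.41 and 2.85 CPM in the fraction and 25.3, 25.0, 24.0, 20.5 and 24.9 CPM in input. It was lower in every fraction library (−3.11, SE 0.40, adjusted p = 4.93e-07). Adamtsl1 was lower by −2.66, Adamtsl3 by −1.12 and Adamtsl2 by −1.19, the last with an adjusted p of 0.0502 without the numbers 976 and 982.

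**Figure D4:**
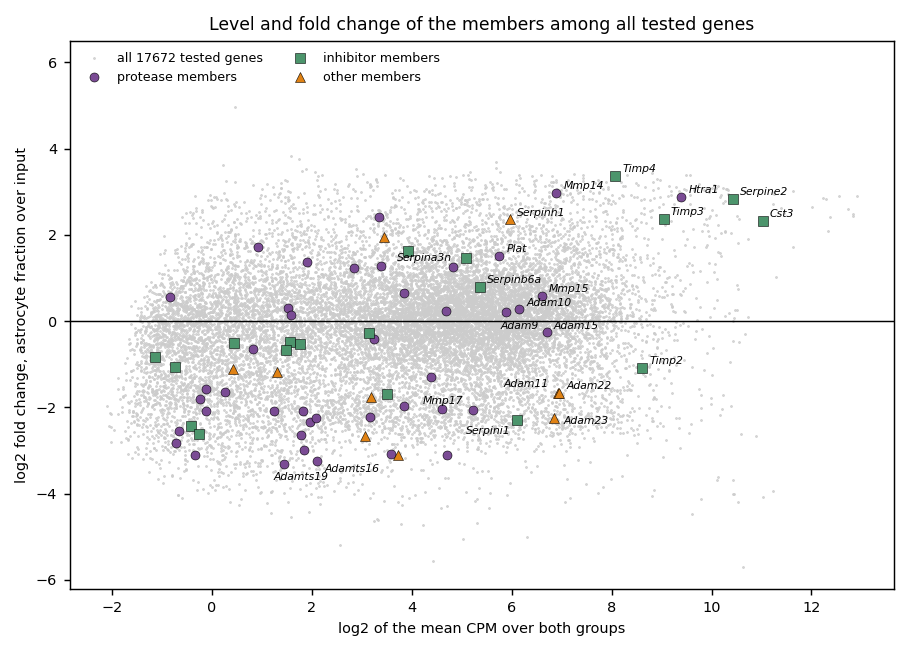
Log2 fold change, astrocyte fraction over input (y axis), against the log2 of the mean CPM over both groups (x axis) for 17672 tested genes (grey), with proteases as purple circles, inhibitors as green squares and other members as orange triangles. The most abundant members called higher are Cst3, Serpine2, Htra1, Timp3 and Timp4, and Timp2 is the most abundant member called lower.

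A few abundant members set the summed levels. Proteases together reached 1766 to 2047 TPM in the fraction and 672 to 763 TPM in input, and Htra1 alone held 10.4% of the summed TPM of all members in the fraction and 5.23% in input. Inhibitors together reached 9694 to 12483 TPM in the fraction and 2793 to 3363 TPM in input. Serpine2 made up 7.30% of the members' TPM in the fraction and 3.8% in input, and Timp2 made up 1.66% in the fraction and 12.8% in input. The ratio of summed inhibitor to summed protease TPM was 5.89 ± 0.638 in the fraction and 4.22 ± 0.356 in input (SD, n = 5). Without Cst3 it was 1.05 ± 0.0586 in the fraction and 1.35 ± 0.118 in input, lower in the fraction. On CPM, which does not correct for length, that ratio without Cst3 was 2.06 ± 0.158 in the fraction and 1.44 ± 0.114 in input, higher in the fraction. Its direction thus depended on the length scaling.

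**Figure D5:**
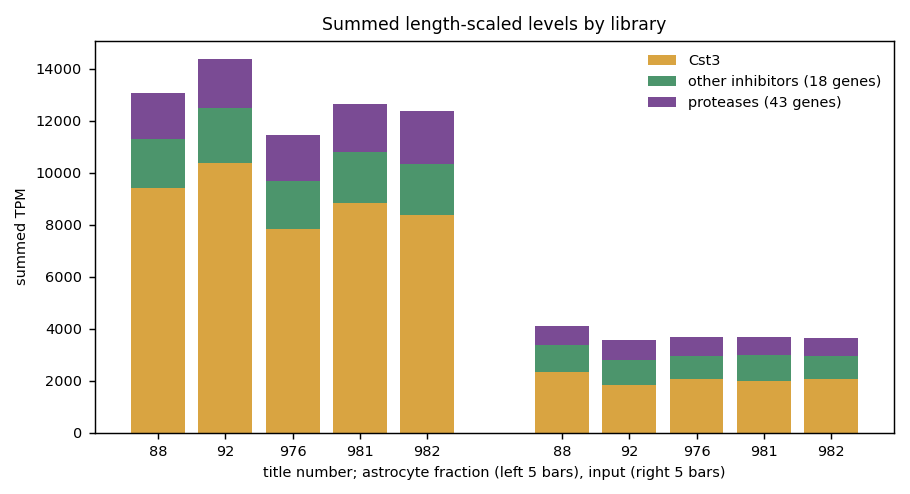
Summed TPM (y axis, from 0) per library of Cst3 (yellow), the other 18 inhibitors (green) and 43 proteases (purple), with the 5 astrocyte fraction libraries on the left and the 5 input libraries on the right. Cst3 alone, at 8966 TPM on average in the fraction and 2048 TPM in input, is the largest piece of each bar.

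Genes that act with these enzymes were counted from separate lists, each to be read beside the 33.1% of all tested genes called higher and the 37.5% called lower. Of 20 matrix substrates 6 were higher in the fraction, 8 lower and 6 not called (median −0.43 on the log2 scale). The lecticans, which ADAMTS enzymes cleave, split. Bcan averaged 2147 ± 261 CPM in the fraction and 310 ± 20.3 CPM in input (log2 fold change 2.79, adjusted p = 9.84e-11) and Ncan 405 ± 52.2 CPM in the fraction and 108 ± 15.1 CPM in input (1.90, adjusted p = 8.15e-09). Vcan and Acan were lower, by −3.73 and −3.04. Of 21 membrane proteins known to be shed by ADAM enzymes 12 were higher, 7 lower and 2 not called (median 0.55). The Adam17 substrate Tnfrsf1a averaged 101 ± 4.80 CPM in the fraction and 13.9 ± 2.84 CPM in input (2.84, adjusted p = 6.70e-10), Hbegf was higher by 2.09 and Notch1 by 1.90, whereas App was lower by −2.03 and L1cam by −2.92.

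Partners that guide ADAM enzymes gave 9 higher, 6 lower and 3 not called of 18 (median 0.39). Rhbdf1, which carries Adam17 to the cell surface, averaged 34.8 ± 6.60 CPM in the fraction and 9.82 ± 1.36 CPM in input (1.82, adjusted p = 1.29e-07). Of the tetraspanins that bind Adam10, Tspan15 was higher by 1.67 and Tspan5 by 0.90, and Tspan17 was lower by −1.99. Of 16 genes of plasmin formation and clearance 5 were higher, 8 lower and 3 not called (median −0.22). Lrp1, the receptor that takes up complexes of proteases and serpins, was higher by 1.13, and F3, tissue factor, by 3.07, while Klk6, a protease of oligodendrocytes, was lower by −3.99.

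Inhibitors outside the families above gave 8 higher, 4 lower and 8 not called of 20 (median 0.41). A2m, a broad protease trap, averaged 90.5 ± 20.8 CPM in the fraction and 16.9 ± 2.76 CPM in input (2.42, adjusted p = 3.86e-08), and Itih3 was higher by 2.86. Spock1, Spock2 and Spock3, proteoglycans with inhibitor domains, were lower by −2.12, −1.78 and −2.89. Of 12 cathepsins, the enzymes that Cst3 inhibits and their relatives, 7 were higher, 3 lower and 2 not called (median 0.72). Ctso was higher by 2.87 and Ctsl by 1.42, and Ctss, a microglial enzyme, was lower at 1.78 ± 0.798 CPM in the fraction and 63.2 ± 11.4 CPM in input (−5.05, adjusted p = 5.13e-09).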

How the data were processed

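PolyA RNA of 5 astrocyte fraction and 5 input libraries was analysed. The authors deposited 1 table. Its expected counts (estimated counts per gene) are raw values that the authors had not scaled before they deposited them, made from reads on mm10 per the submitters' processing notes. The deposited log2 values were normalized by the authors in a way that is not stated. The same notes name CASAVA 1.8 and DESeq with no role. Aligner, counter and strand setting: not given in the sources used here. Only genes that reach 5 counts in each library of 1 or both groups are listed.

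After rounding to whole numbers the counts were fitted across all genes with edgeR 4.0.16 in R 4.3.3 (robust quasi-likelihood, TMM). Genes were filtered with filterByExpr at a minimum count of 10, which left 17672 and removed 792. Calls are at a Benjamini-Hochberg adjusted p under 0.05. A log2 fold change is fraction over input, with a prior count of 2, and its SE comes from the log2 CPM of 5 libraries per group. That SE is not part of the fit that gave the p-value, so a p-value cannot be derived from it. CPM uses TMM-scaled library sizes. TPM was computed from the counts and the exon length in GENCODE M21. The script was tested on simulated data. Of the 72 members, 69 have the same coordinates in that annotation, and 47 matched a promoter window (52 windows). Alternatives were DESeq2 1.42.0 (its size factors in the edgeR fit, and its Wald test), limma 3.58.1 on the deposited log2 values, total-count scaling, other filters, a block on the title number, and left-out libraries.

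Same-numbered libraries deviated together from their group means (Pearson r across genes of 0.189 to 0.493 for the 5 pairs, every one over 0.1), so the numbers were taken to pair the libraries. The mean for other pairings was −0.08. Deviations from a group mean cancel out within the group, so positive pairs make this mean negative, and it adds no separate support. Among the 20 other pairings 5 were also over 0.1 (0.112 to 0.302), and fraction 982 correlated better with input 976 (0.302) than with input 982 (0.189). The pairing comes from the title numbers and this check. The main fit did not use it, so its calls, p-values and SEs are unpaired. The pairing entered only in the alternative with the title number as a block.

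Named in full were, for each class, the member with the highest mean CPM, up to 3 called higher and up to 3 called lower with the smallest adjusted p, and a fixed list of 32 well-known members of which 30 were in the table, 47 members in all. Others are given by counts, ranges or log2 fold changes. Libraries' single values are named for genes outside this rule where they decide a call; those were chosen after their values were seen. Members and lists were chosen with earlier results of these data known. The values of 1 member are not reported here; it is counted in the totals.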

Additional observations from a re-analysis of the deposited data

Results flagged for a closer look

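Within a group of 5 libraries, 19 of 144 sets of member values had 1 library far from the other 4 by Dixon's criterion (95% level, critical value 0.71), where chance gives about 1 in 20, or 7.2. Of these, 9 were in number 976, whose libraries held the most choroid plexus transcripts.

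In the fraction, library 976 was the highest for Adamts1 (45.9 CPM), Timp2 (382 CPM), Mmp2 (9.09 CPM), Serpinb1b (7.58 CPM) and Adam21 (0.160 CPM). Library 92, the shallow one, was the highest for Serpina3g (2.05 CPM) and Adam8 (0.293 CPM) and the lowest for Adam1b (0 CPM, where 3 counts are 0.880 CPM). The Adam8 value is 1 count, against 2 counts in each other fraction library, so it is highest only after scaling to depth. Library 88 was the highest for Serpind1 (10.7 CPM), and library 981 was the lowest for Mmp24 (7.44 CPM).

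Among input libraries, 976 was the highest for Adamts1 (18.9 CPM), Htra2 (25.2 CPM), Adam33 (1.95 CPM) and Serpina3f (1.33 CPM). Input library 88 was the highest for Serpind1 (6.84 CPM) and Serping1 (5.47 CPM), and input library 92 for Reck (12.7 CPM). The lowest values stood apart for Adamtsl4 in input library 981 (20.5 CPM) and for Adam1a in input library 982 (4.60 CPM).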

How the results depend on the processing

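Of 71 members tested, 50 of the 58 called kept their call under all 19 alternatives in which they were tested, and no member was called in opposite directions. Restricting the test to genes with a mean of at least 5 CPM left 17 members, 8 proteases and 3 inhibitors called lower. It turned the median of the proteases to 0.16 and of the inhibitors to 1.38, over fewer members. The median of all tested genes was −0.04 at that level and −0.06 in the main fit. What turned the class medians was not tested. With the replicate block 8 inhibitors were called lower. The block moved the calls of 5 members, Adam12 (lost) and Adam9, Serpina3f, Serpinb1b and Serpind1 (gained), and changed no other member's call. Total-count scaling turned Htra2 to −0.043, Adam10 to −0.0099, Adam9 to −0.08 and Mmp2 to −0.10 on the log2 scale, all without a call; it moved the median of all genes to −0.34. Leaving out the numbers 976 and 982 turned Mmp2 to −1.12, Adamts1 to −0.16 and Serpind1 to 0.21, and the block turned Mmp2 to −0.38. Leaving out single libraries kept each count of calls within 1.5 times. Depth limits the members near 1 CPM most in fraction library 92, where a gene at 0 may lie anywhere below 0.880 CPM by counting error alone. Genes that overlap others on the opposite strand are uncertain because the strand setting is not stated, and overlaps on the same strand and close paralogues because it is not known how shared reads were counted.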
